A study of Mus musculus with 6 samples.

Results

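Apoa1, Apoa4, Apoc3, Apob, Mogat2 and Creb3l3, 6 genes of lipoprotein and chylomicron production, were followed in single cells of mouse small intestinal epithelium. They were chosen by name, and all 6 were found among the 5674 genes listed for both intestinal regions. The samples came from 3 mice of 120 days on a mixed CD-1:C57BL/6 background, each of which gave an anterior jejunum sample (piece 3 of 12) and a posterior jejunum sample (piece 7 of 12). The labels give no genotype or treatment that sets the mice apart. Villus and crypt cells were mixed at equal parts, sorted as single live EpCAM+ cells (EpCAM is an epithelial surface protein) and sequenced by MARS-seq, a plate method that counts molecules by unique molecular identifiers (UMIs). The tables hold 1028 anterior cells (568, 198 and 262 from mice 1, 2 and 3) and 1015 posterior cells (511, 280 and 224), with a median of 2766 to 8689.5 UMIs per cell in the 6 samples.

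Enterocytes absorb fatty acids and monoacylglycerol, rebuild triglyceride in the endoplasmic reticulum and load it onto apolipoprotein B to form chylomicrons, which leave the cell with other apolipoproteins on their surface. Apob encodes that structural protein. Apoa1, Apoa4 and Apoc3 encode smaller exchangeable apolipoproteins, Mogat2 encodes the acyltransferase that adds a fatty acid to monoacylglycerol, and Creb3l3 encodes a membrane-bound transcription factor of the liver and small intestine that is known to act on apolipoprotein genes.

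Apoa1 (ENSMUSG00000032083, chr9:46228580-46230466, + strand), Apoc3 (ENSMUSG00000032081, chr9:46232933-46235636, - strand) and Apoa4 (ENSMUSG00000032080, chr9:46240696-46243459, + strand) are protein-coding neighbours within 14880 bp in the GENCODE annotation of GRCm38. The others lie apart: Apob (ENSMUSG00000020609) at chr12:7977648-8016835 on the + strand, Mogat2 (ENSMUSG00000052396) at chr7:99219084-99238619 on the - strand and Creb3l3 (ENSMUSG00000035041) at chr10:81084324-81098874 on the - strand. The RefSeq promoter table (GRCm38.p6) held 4 of the 6 members, and the 250 bases before each listed start were searched. The starts listed for Apoa1, Apoa4 and Apob lie inside the GENCODE genes, so that 50, 148 and 29 bases of these windows are in the gene. The bases of the window that precede the GENCODE gene are shown for Apoa1 and Apoa4, the members with the most UMIs, and for Apob, the structural protein. Capitals mark letters searched on both strands. CAAAGTNCA and CAAAGGNCA are elements of the kind bound by HNF4 receptors. The core of a cyclic AMP response element is TGACGT. Also searched were TATAAA, which marks some start sites, and, as an element bound by zinc finger factors of the intestine, TGATAAG. The share of promoters with a match is given for those found.
Apoa1, chr9:46228380-46228579, + strand: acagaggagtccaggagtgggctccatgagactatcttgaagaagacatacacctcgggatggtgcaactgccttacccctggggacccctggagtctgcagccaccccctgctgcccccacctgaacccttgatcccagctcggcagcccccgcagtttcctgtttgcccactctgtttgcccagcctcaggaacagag
Apoa4, chr9:46240594-46240695, + strand: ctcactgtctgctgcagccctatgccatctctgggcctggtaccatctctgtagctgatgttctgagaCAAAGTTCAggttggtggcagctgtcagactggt
Apob, chr12:7977427-7977647, + strand: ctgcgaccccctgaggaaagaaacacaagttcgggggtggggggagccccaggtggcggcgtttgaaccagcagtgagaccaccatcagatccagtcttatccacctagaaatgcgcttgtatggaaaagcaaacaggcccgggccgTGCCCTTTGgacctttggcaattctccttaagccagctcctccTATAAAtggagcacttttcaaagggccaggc
CAAAGTNCA was found once in the Apoa4 window, 34 to 26 bases before the GENCODE start of the gene, and in 1.193% of the 32851 promoters of the table. CAAAGGNCA was found once in the Apob window, on the opposite strand, 74 to 66 bases before the GENCODE start, and in 1.711% of promoters. TATAAA was found in the Apob window, 31 to 26 bases before it, and in 12.368% of promoters. None of the 5 letter patterns was found in the Apoa1 window or in the windows of the 2 listed Creb3l3 starts. No 2 of the marked stretches overlap.

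Levels are given as CP10K, the UMIs of a gene per 10000 UMIs of the cell, averaged over the cells of a class in 1 sample. Classes came from clusters computed without any lipid gene, and a cluster took a name only from its markers. Of 10 clusters, 3 were enterocyte-like (876 cells), 3 goblet-like (273, 119 and 255 cells), 1 progenitor-like (184 cells), 1 enteroendocrine-like (107 cells) and 1 tuft-like (39 cells). The enteroendocrine-like cluster had 9 of 9 enteroendocrine markers raised (median log2 ratio 4.06) but also 2 of 2 B or plasma cell markers (6.81). The last cluster was Paneth-like (190 cells) but also had 6 of 24 enterocyte, 6 of 12 goblet and 4 of 9 enteroendocrine markers raised, its cells held 1290.5 UMIs in the median, and it was not tested. Mouse 1 stood apart. Of the 197 cells of one enterocyte-like cluster (led by Mgst1 and Gstm1), 74.6% came from mouse 1. The other enterocyte-like clusters held 18 and 3 cells of its anterior and 3 and 11 cells of its posterior sample. The first of these clusters had 9 of 24 enterocyte markers raised and took no name when its markers were set against the mean of other cells. Mouse 1 also gave 99.3% and 76.9% of the goblet-like clusters of 273 and 255 cells and 77.6% of the enteroendocrine-like cluster. Values without the enterocyte-like cluster mostly of mouse 1, called the mouse 1 cluster, are given for the members and, in the zones, for the named genes of the lists.

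All 6 members were higher in enterocyte-like cells than in progenitor-like, goblet-like, enteroendocrine-like and tuft-like cells (limma, adjusted p under the 0.05 threshold for each member in each of the 4 comparisons). The contrast with progenitor-like cells, the dividing crypt cells, was the steepest for Apoa4 and Apoa1. Differences below are on the log2(CP10K + 0.2) scale with the standard error (SE) of the fit.

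Apob stood at 5.35, 15.7 and 24.5 CP10K (lowest, median and highest of 6 samples) in enterocyte-like cells and at 0.63, 1.29 and 1.93 CP10K in progenitor-like cells. The ranges did not overlap, and the difference was 3.24 (SE 0.49, adjusted p = 6.54e-06). Apoa1 stood at 107, 372 and 555 CP10K against 9.49, 11.1 and 20.4 CP10K, a difference of 4.46 (SE 0.28, adjusted p = 1.85e-13). The lowest enterocyte-like sample lay far above the highest progenitor-like sample. Apoa4, an apolipoprotein known to rise after a fatty meal, stood at 32.8, 185 and 317 CP10K against 2.58, 6.04 and 8.86 CP10K, a difference of 4.51 (SE 0.33, adjusted p = 3.83e-12). Apoc3, an inhibitor of lipoprotein lipase, stood at 14.1, 51.4 and 75.5 CP10K against 2.07, 4.27 and 6.43 CP10K, a difference of 3.31 (SE 0.28, adjusted p = 1.13e-10). As for Apoa1 and Apoa4, the 2 classes did not overlap, and mouse 1 gave the 2 lowest enterocyte-like values.

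Mogat2 was the least varied member among enterocyte-like samples, at 2.71, 4.51 and 5.50 CP10K, against 0.24, 0.47 and 0.57 CP10K in progenitor-like cells. The difference was 2.85 (SE 0.47, adjusted p = 2.65e-05), and here mouse 1 was not low, at 4.16 CP10K in the anterior and 5.03 CP10K in the posterior sample. Creb3l3 stood at 4.11, 14.5 and 28.7 CP10K against 0.43, 0.62 and 1.35 CP10K, a difference of 3.86 (SE 0.52, adjusted p = 1.2e-06). Of all 5313 genes tested, 14.1% were higher and 13.4% lower in enterocyte-like than in progenitor-like cells, and the median over all genes was 0.08 against 3.58 over the members. Together the members held 1.43% to 6.61% of all UMIs of enterocyte-like cells and 0.19% to 0.35% of those of progenitor-like cells.

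**Figure D1:**
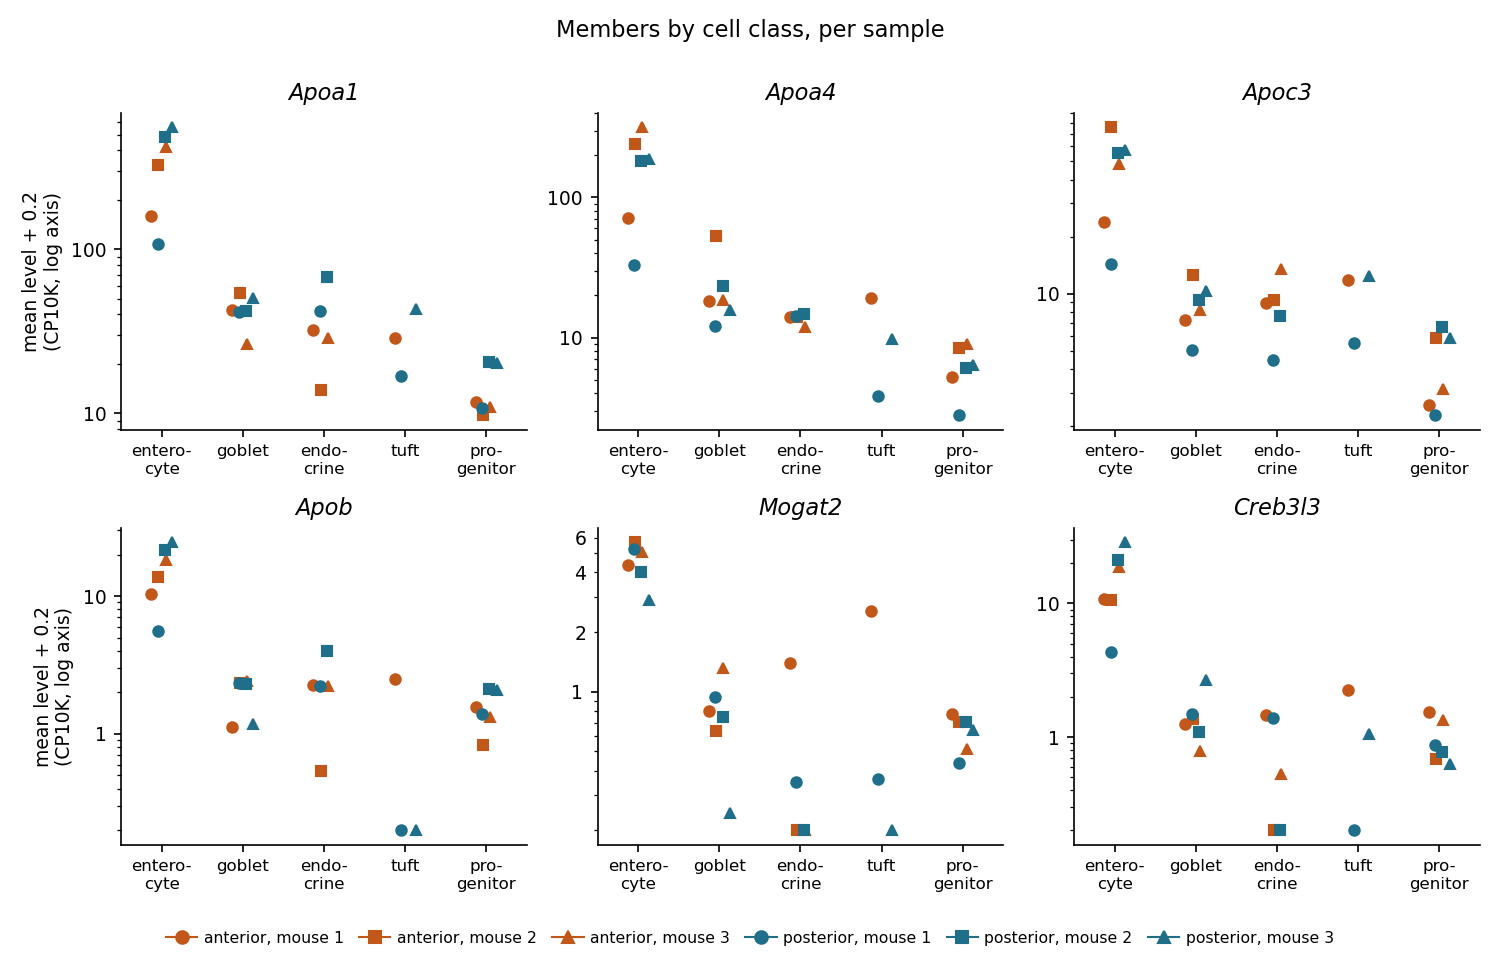
Mean level of each member (CP10K + 0.2, log axis) in 5 cell classes, one point per sample with at least 5 cells; colour gives the region and shape the mouse. The 6 enterocyte-like points of Apoa1, between 107 and 555 CP10K, lie above every point of the other classes shown. The Paneth-like cluster is not shown.

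Against goblet-like cells, the mucus-secreting class, the members were higher in enterocyte-like cells by 2.24 (SE 0.28, Apoc3) to 3.31 (SE 0.52, Creb3l3), with adjusted p between 4.14e-09 (Apoa1) and 8.17e-05 (Mogat2), where 16.4% of genes were higher and the median gene stood at 0.48. With median-of-ratios scaling, which moved the median over all genes to 0.03, the members were still higher by 1.46 (Apoc3) to 2.603 (Creb3l3). Against enteroendocrine-like cells the differences ran from 2.20 (SE 0.29, Apoc3) to 4.53 (SE 0.55, Creb3l3) over the 5 samples with at least 5 such cells, beside 14.6% of genes higher. Against tuft-like cells they ran from 1.78 (SE 0.35, Apoc3) to 4.83 (SE 0.62, Apob) over the 3 samples with at least 5 such cells, beside 20.1% of genes higher. Apoc3 was the member with the smallest difference from each of these 3 classes. No gene (0.0% called) passed a test of whether the difference from progenitor-like or goblet-like cells itself differed between the regions (188 and 112 of 5313 genes at an unadjusted p under 0.05).

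Among goblet-like cells the level differed between clusters that also differed in depth. In cells of the deep cluster, led by Retnlb and Spink4 (median 8221 to 14992 UMIs per cell and sample), Apoa1 stood at 7.63 to 16.3 CP10K. In those of a shallow cluster, led by Ern2 and Sytl2 (1125 to 1982 UMIs), it stood at 33.8 to 89.4 CP10K. Counted per cell, the same cells held 8.82 to 21.5 and 6.25 to 13.9 Apoa1 UMIs, ranges that overlapped while the depths did not. The largest goblet-like cluster (273 cells) stood at 45.9 and 38.7 CP10K in the anterior and posterior samples of mouse 1 (2262.5 and 2689 UMIs). Depth and cluster cannot be told apart here. In cells thinned to 1000 UMIs, Apoa1 had a UMI in 85.9% to 100% of enterocyte-like cells and in 48.4% to 100% of progenitor-like cells (median depth before thinning 2512.5 to 11279 and 10950 to 16233 UMIs). Without thinning these shares were 97.4% to 100% and 93.5% to 100%. Apob, by contrast, had a UMI in 25.6% to 68.9% of thinned enterocyte-like and 6.52% to 30.8% of progenitor-like cells, and Mogat2 in 21.1% to 36.7% and 0% to 8.33%, where the sample at 0 had a Mogat2 UMI in 8 of its 18 cells before thinning. Without thinning the Mogat2 shares were 41.95% to 79.49% and 13.04% to 44.44%. The Paneth-like cluster was not low for any of the 6 members, each of which had a higher mean there than in the goblet-like, progenitor-like, enteroendocrine-like and tuft-like classes. Over the 5 samples with at least 5 of its cells Apoa1 stood at 103 to 214 CP10K, Apoa4 at 23.3 to 209.8 CP10K and Mogat2 at 1.55 to 5.81 CP10K. Apoc3 stood at 14.5 to 44.9 CP10K, Apob at 4.59 to 16.5 CP10K and Creb3l3 at 3.38 to 11.8 CP10K. Each of these ranges overlapped that of enterocyte-like cells. RNA free in the suspension was not measured, and its part in these levels was not tested. Restricted to cells of at least 5000 UMIs, the members were higher in enterocyte-like than in goblet-like cells by 3.48 (Creb3l3) to 4.34 (Apoa1). In that setting 1890 of 5143 genes were higher, and the median over all genes was 0.58.

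Within the villus, 5 of the 6 members passed as higher in the upper than in the lower zone of enterocyte-like cells, beside 8.66% of all genes. Each of the 5 was also higher in every sample. The share of all genes higher in every sample was not counted. Each enterocyte-like cell was placed by 13 landmark genes, 6 of the villus tip (Ada, Krt20, Dnase1, Klf4, Enpp3 and Serpinb1a) and 7 of its base (Reg3b, Reg3g, Nlrp6, Il18, Ccl25, Lypd8 and Gpx2), none of them a member, and the cells of each sample were split by that score into 3 zones of equal cell number, called lower, middle and upper. The score is a range rather than a cell type, and 135 of 876 cells lay within 0.1 standard deviations (SD) of one of the splits. Of all 5002 genes tested, 20.4% passed (8.66% higher and 11.8% lower in the upper zone).

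Apoa4 showed the widest difference of the members, from 10.7, 46.7 and 118 CP10K (lowest, median and highest of 6 samples) in the lower zone to 58.1, 336 and 617 CP10K in the upper zone. It was higher in 6 of 6 samples, by up to 3.64, and the fitted difference was 2.38 (SE 0.21, adjusted p = 5.51e-08). Apoa4 was also the member that passed between the middle and lower zones, by 1.35 (SE 0.21, adjusted p = 0.00184), where 0.1% of genes passed. Apoa1 went from 27.8, 225 and 369 CP10K to 181, 479 and 741 CP10K, higher in 6 of 6 samples, a difference of 1.38 (SE 0.20, adjusted p = 5.45e-05). Its samples overlapped between zones. The zones divide each sample by its own scores, and the upper zone of posterior mouse 1 had a median position score of -1.10, close to the -1.07 of the lower zone of posterior mouse 2. Apob went from 3.66, 9.17 and 10.4 CP10K to 7.98, 22.8 and 40.5 CP10K, a difference of 1.51 (SE 0.21, adjusted p = 4.36e-05). Apoc3 went from 4.16, 30.5 and 55.8 CP10K to 27.8, 63.8 and 88.4 CP10K, a difference of 1.28 (SE 0.22, adjusted p = 0.000289). For Apoc3 most of the difference lay below the middle zone, 0.79 (SE 0.22) against 0.49 (SE 0.22) above it, and neither step passed alone (adjusted p = 0.103 and 0.276).

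Creb3l3, the transcription factor, went from 2.22, 5.70 and 11.6 CP10K in the lower zone to 4.73, 28.5 and 47.6 CP10K in the upper zone, a difference of 1.95 (SE 0.25, adjusted p = 1.82e-05). It was higher in 6 of 6 samples, by 1.03 to 2.95. The step from the middle to the upper zone was 1.09 (SE 0.25, adjusted p = 0.0567), and that from the lower to the middle zone 0.86 (SE 0.25, adjusted p = 0.122).

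Mogat2 did not follow the apolipoproteins. It stood at 3.86, 4.47 and 6.50 CP10K in the lower zone, 3.11, 5.27 and 7.87 CP10K in the middle zone and 1.12, 2.95 and 5.13 CP10K in the upper zone. The upper zone was lower by 0.83 on the log2 scale in the fit (difference -0.83, SE 0.26, adjusted p = 0.0249) and lower in 5 of 6 samples, the exception being the posterior sample of mouse 1 at 0.39 higher. The call was lost in cells thinned to 2000 UMIs (-0.38, adjusted p = 0.394) and in cells of at least 5000 UMIs (-0.08, adjusted p = 0.836). It was also lost when the anterior sample of mouse 1, 2 or 3 was left out (-0.70, -0.80 and -0.81, adjusted p = 0.097, 0.0665 and 0.0627) and when the posterior sample of mouse 3 was left out (-0.67, adjusted p = 0.114).

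**Figure D2:**
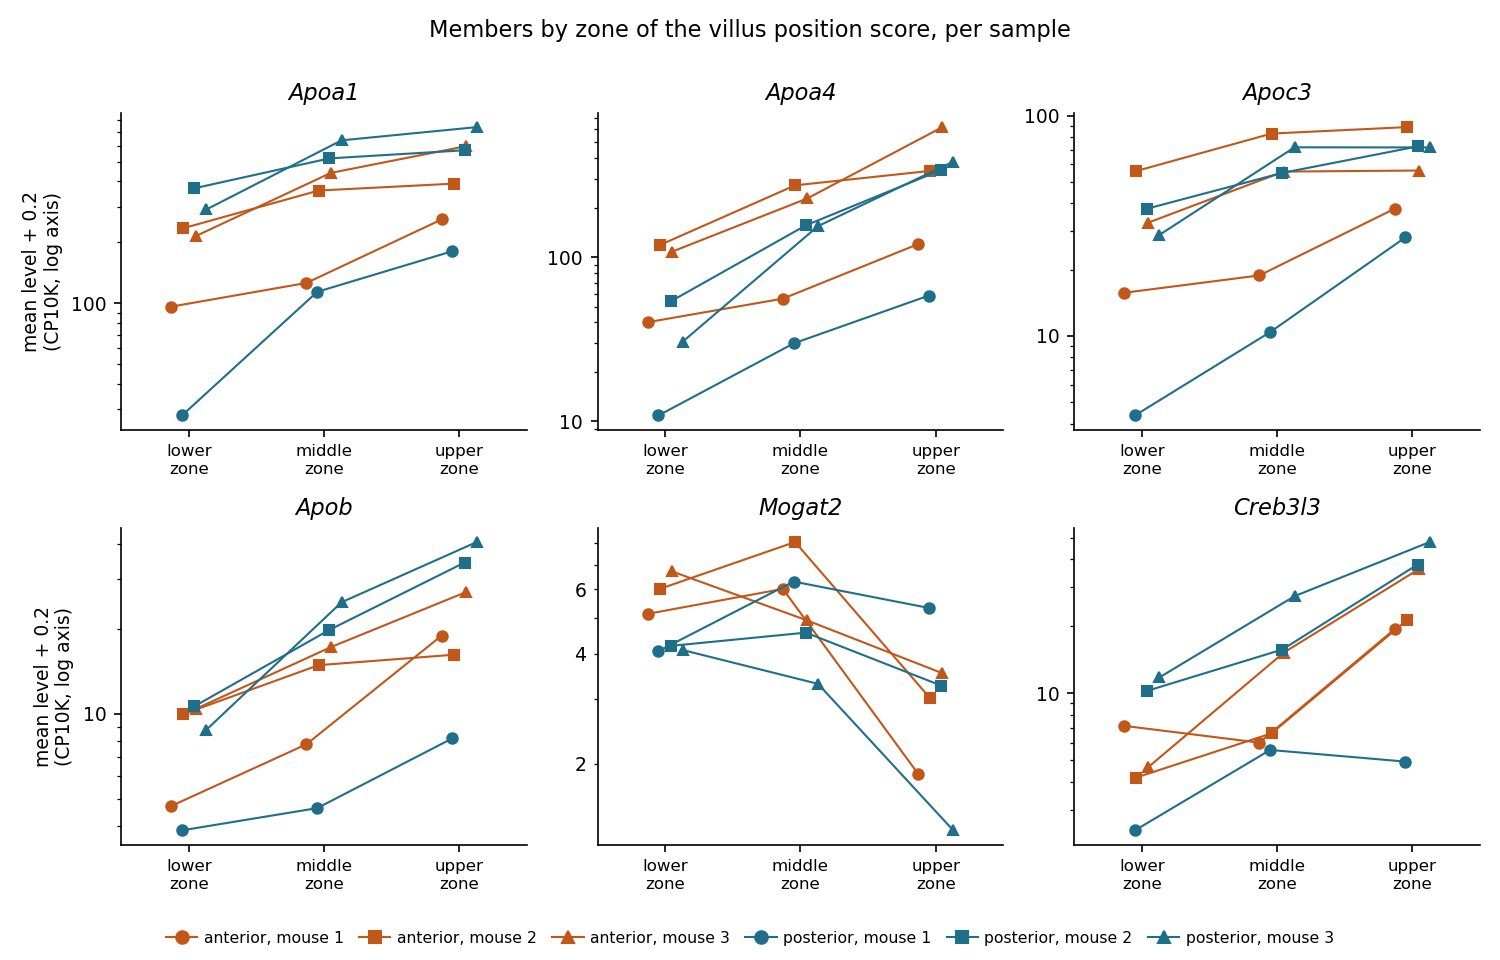
Mean level of each member (CP10K + 0.2, log axis) in the lower, middle and upper zone of the villus position score, one line per sample; colour gives the region and shape the mouse. The lines of Apoa1, Apoa4, Apoc3, Apob and Creb3l3 end higher than they start in all 6 samples, while those of Mogat2 end lower in 5 of 6.

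Depth and RNA content moved with position. The upper zone had a median of 1697 to 2282 UMIs per cell in 5 samples (9470.5 in the posterior sample of mouse 1), and the lower zone 9186 to 12559. Malat1, a nuclear RNA, stood at 26.1 to 257 CP10K in the upper and 10.5 to 64.7 CP10K in the lower zone, and ribosomal protein genes took 1.42% to 17.6% against 8.34% to 18.4% of UMIs. The zones also drew on different clusters. Of the 35 anterior and 26 posterior lower-zone cells of mouse 1, 34 and 26 came from the mouse 1 cluster. The part of the clusters in the position differences was not tested. The difference was as large for 4 members in cells of at least 5000 UMIs, whose zones were split anew: 2.67 for Apoa4, 2.20 for Apoc3, 1.78 for Apoa1 and 1.62 for Apob. There Creb3l3 was at 1.34 (SE 0.26, adjusted p = 0.00118), against 1.95 over all cells. In the deep cells of the anterior sample of mouse 1, Creb3l3 was flat, at 6.79, 6.28 and 6.82 CP10K in the lower, middle and upper zones. In those deep cells Apoa4 stood at 42.3 CP10K in the lower and 241 CP10K in the upper zone (means over 6 samples), and Mogat2 at 5.02 and 4.92 CP10K.

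**Figure D3:**
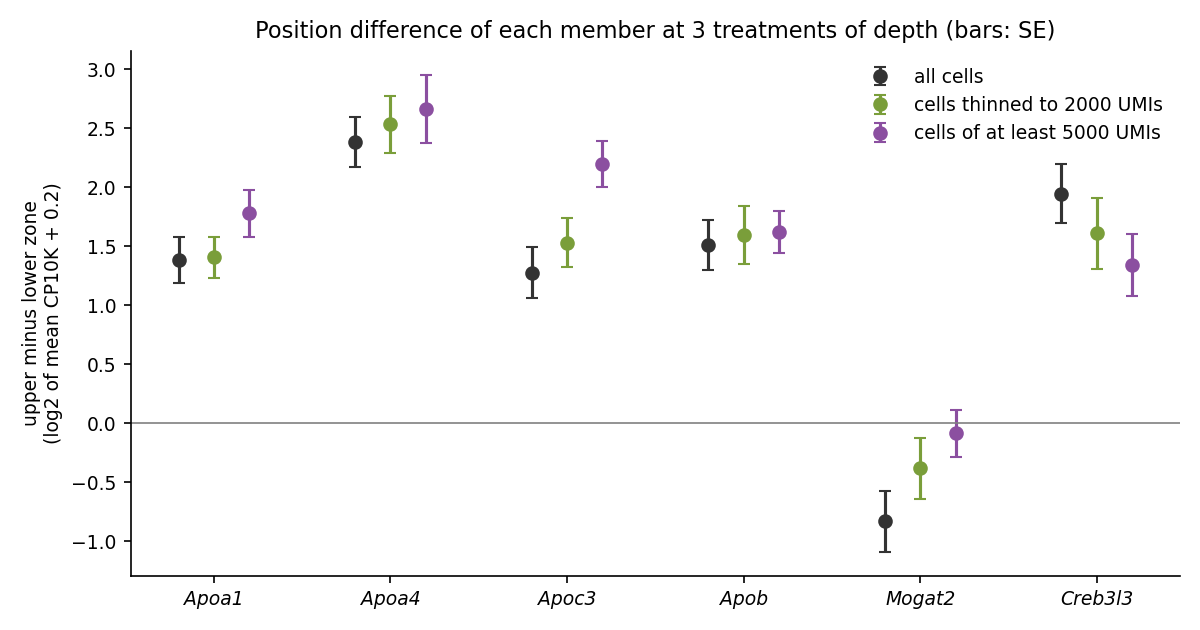
Fitted difference between the upper and lower zone of each member (log2 of mean CP10K + 0.2, bars are the SE of the fit) with all cells, with cells thinned to 2000 UMIs and with cells of at least 5000 UMIs. Apoa1, Apoa4, Apoc3, Apob and Creb3l3 lie above 0 in all 3 cases, and Mogat2 moves from -0.83 to -0.08.

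Without the enterocyte-like cluster that was mostly of mouse 1, Apoa4 (2.07, adjusted p = 1.05e-05), Apoa1 (0.72, adjusted p = 9.49e-06), Apob (1.33, adjusted p = 0.00506) and Creb3l3 (1.63, adjusted p = 0.00275) still passed, while Apoc3 (0.48, adjusted p = 0.177) and Mogat2 (-1.45, adjusted p = 0.16) did not, and 99 genes passed in place of 1021. The upper zone of the posterior sample of mouse 1 then had fewer than 5 cells and left the fit. Without every cluster mostly of 1 mouse, all 6 members were still higher than in progenitor-like and goblet-like cells, with medians of 3.91 and 4.55. Of all 5202 genes tested there, 1026 and 1574 were higher, and the medians over all genes were -0.02 and 0.59. Apoc3 also missed the threshold when cells were placed by base landmarks alone (0.59, adjusted p = 0.0565), and Creb3l3 when they were placed by tip landmarks alone (0.70, adjusted p = 0.0563). The cluster means differed in kind between members. In the shallow enterocyte-like cluster led by Slc23a4 and Ada (median 1547.5 UMIs) Creb3l3 stood at 34.6 CP10K and Apoc3 at 37.8 CP10K, and in the deep one led by Dnase1 (median 10162 UMIs) Creb3l3 stood at 7.81 CP10K and Apoc3 at 82.7 CP10K.

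No gene (0.0% called) passed a test of whether the position difference itself differed between the regions (241 of 5002 genes at an unadjusted p under 0.05). For Apoa4 the difference was 1.04 smaller in the anterior than in the posterior samples (-1.04, SE 0.48, unadjusted p = 0.0431, adjusted p = 1.0). For the other members it ran from -0.74 (Apoc3) to 0.60 (Creb3l3).

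Other genes of the route were mixed along the villus, where 8.66% of all genes were higher and 11.8% lower in the upper zone. Of 13 measured genes of fatty acid and cholesterol uptake and activation, 4 were higher in the upper zone, 2 lower and 7 did not pass, with a median of 0.33 beside -0.10 over all genes. Slc27a4, a fatty acid transport protein, was higher by 1.23 (SE 0.23, adjusted p = 0.000572) and Npc1l1, the cholesterol uptake protein, by 1.19 (SE 0.26, adjusted p = 0.00256). Fabp1, the liver-type fatty acid binding protein, stood lower at 62.0 against 131 CP10K (-1.12, SE 0.17, adjusted p = 0.000119), and Dbi, which carries acyl-CoA, was lower by the same amount (-1.12, SE 0.19, adjusted p = 0.000287). Without the mouse 1 cluster Npc1l1 did not pass (0.64, adjusted p = 0.266), while Slc27a4 (1.31, adjusted p = 0.04), Fabp1 (-1.44, adjusted p = 1.68e-05) and Dbi (-1.22, adjusted p = 0.0154) did. In cells of at least 5000 UMIs, where 5.28% of all genes were higher and 8.93% lower, 8 of the 13 were higher and 1 lower, and Fabp1 did not pass (0.11, adjusted p = 0.767), nor did it in cells thinned to 2000 UMIs (-0.52, adjusted p = 0.0614).

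Of 12 genes of triglyceride, ester and phospholipid synthesis, 2 were higher and 10 did not pass (median 0.52). These were Lpin2, a phosphatidate phosphatase (2.45, SE 0.52, adjusted p = 0.00192), and Dgat1, which makes triglyceride from diacylglycerol, the product of Mogat2 (0.88, SE 0.19, adjusted p = 0.00244). Both passed in cells thinned to 2000 UMIs (1.72 and 0.72, adjusted p = 0.0103 and 0.0261). In cells of at least 5000 UMIs neither passed (0.98 and 0.46, adjusted p = 0.0861 and 0.0508). There 3 of the 12 genes were higher (median 0.45), beside 5.28% of all genes. Without the mouse 1 cluster Lpin2 passed (1.75, adjusted p = 0.0436) and Dgat1 did not (0.66, adjusted p = 0.112). Of 28 genes of chylomicron assembly and secretion, 2 were higher and 26 did not pass (median 0.06): Cidec (1.65, SE 0.40, adjusted p = 0.0057) and Plin3 (0.76, SE 0.25, adjusted p = 0.0324), which encode lipid droplet proteins. Without that cluster neither passed (1.45, adjusted p = 0.31, and 0.605, adjusted p = 0.46), and Cidec also missed the threshold in thinned cells (1.29, adjusted p = 0.0685). In cells of at least 5000 UMIs both passed (1.43 and 0.97, adjusted p = 0.00516 and 0.005), and 4 of the 28 genes were higher. Of 18 genes of fatty acid oxidation and PPAR alpha targets, Acadvl, a mitochondrial dehydrogenase of long-chain fatty acids, was lower (-0.89, SE 0.30, adjusted p = 0.0363) and 17 did not pass. Acadvl lost this call in thinned cells (-0.45, adjusted p = 0.389), in deep cells (-0.38, adjusted p = 0.244) and without the cluster (-1.19, adjusted p = 0.26). Of 18 transcription factors, Creb3l2 (1.54, SE 0.40, adjusted p = 0.00872), a relative of Creb3l3, Tcf7l2 (1.35, SE 0.39, adjusted p = 0.0173) and Hnf4a (0.86, SE 0.29, adjusted p = 0.0368) were higher and 15 did not pass. Of these 3 only Creb3l2 passed in the deep cells (1.53, adjusted p = 0.00385) and in the thinned cells (1.39, adjusted p = 0.0169), and none passed without the cluster (Creb3l2 0.35, adjusted p = 0.831, Tcf7l2 1.49, adjusted p = 0.219, and Hnf4a 1.22, adjusted p = 0.221). Apol10a and Apobec1, the 2 other genes of the apolipoprotein list that both tables hold, did not pass (-0.48, SE 0.37, and 0.26, SE 0.34).

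Against progenitor-like cells, 9 of 13 uptake genes, 10 of 12 synthesis genes, 12 of 27 assembly genes, 5 of 18 oxidation genes and 4 of 19 transcription factors were higher in enterocyte-like cells, beside 14.1% of all genes. None of these lists held a lower gene, and 4, 2, 15, 13 and 15 of their genes did not pass. Mttp, which loads triglyceride onto apolipoprotein B, was higher by 2.62 (adjusted p = 2.33e-05) at 8.10 against 1.16 CP10K, and Dgat1 by 2.56 (adjusted p = 3.25e-05) at 20.4 against 3.18 CP10K. Fabp1 was higher by 3.25 (adjusted p = 2.58e-10), Slc27a4 by 3.29 (adjusted p = 1.47e-05) and Creb3l2 by 2.63 (adjusted p = 0.000467). Prap1, also on the assembly list, was higher by 2.04 (adjusted p = 1.46e-05). Against goblet-like cells Mttp was higher by 2.88 (adjusted p = 6.62e-06), while Clps, the colipase gene (-3.33, adjusted p = 7.75e-07), and Creb3l1, another relative of Creb3l3 (-3.80, adjusted p = 7.21e-07), were lower in enterocyte-like cells. Apobec1, the enzyme that edits Apob RNA, was lower too (-1.21, adjusted p = 0.0451), but not past the threshold in thinned cells (-1.14, adjusted p = 0.131) or deep cells (-0.63, adjusted p = 0.0906). Creb3l1 stood at 0.08 CP10K in enterocyte-like and 3.85 CP10K in goblet-like cells, whereas Creb3l3 stood at 15.5 and 1.25 CP10K.

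The pattern of each member was set beside that of every gene over 30 mean profiles (the 3 zones, progenitor-like and goblet-like cells of 6 samples). These points share libraries, cells' depth and the rise from progenitor-like to enterocyte-like cells, so the correlations are a description. The genes most like Apoa1 were Dgat1 (r = 0.96), Apoc3 (0.96), Ace (0.95), Bst1 (0.95) and Ggt1 (0.95). Those most like Apoa4 were Gm10680 (r = 0.96), Apoc3 (0.95), Ggt1 (0.95), Dgat1 (0.94) and Apoa1 (0.93), and those most like Apoc3 were Apoa1 (r = 0.96), Ace (0.95), Sectm1b (0.95), Apoa4 (0.95) and Ggt1 (0.95). Apob was most like Dgat1 (r = 0.95), Apoa1 (0.95), Ggt1 (0.94), Slc6a19 (0.94) and Creb3l3 (0.93). Creb3l3 was most like Slc6a19 (r = 0.95), Apob (0.93), Tcn2 (0.93), Apoa1 (0.93) and Slc27a4 (0.92). Mogat2 was most like Ckmt1 (r = 0.94), Ces2e, Sis, Rbp2 and Hsd17b6 (0.88 each), and no other member came nearer to it than Apob, at rank 184 (r = 0.72). Over single enterocyte-like cells of a sample, the correlation of Apoa1 with Apoa4 ran from 0.55 to 0.83 in the 6 samples and that of Mogat2 with Apoa4 from -0.26 to 0.24.

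Between the regions, none of the members passed in enterocyte-like cells, and neither did any of the 5001 genes tested (0.0% called; 203 genes at an unadjusted p under 0.05). Apoa4 in mice 1, 2 and 3 stood at 71.3, 241 and 317 CP10K anteriorly and at 32.8, 182 and 187 CP10K posteriorly, so the regions overlapped while each mouse was higher in its anterior sample. The difference was 0.76 (SE 0.81, adjusted p = 0.996). Apoa1 stood at 159, 327 and 417 CP10K anteriorly and 107, 486 and 555 CP10K posteriorly (-0.14, SE 0.74). Apoc3 differed by 0.32 (SE 0.64), Apob by -0.06 (SE 0.57), Mogat2 by 0.35 (SE 0.35) and Creb3l3 by -0.10 (SE 0.66), all with adjusted p = 0.996. In the lower zone alone Apoa4 stood at 40.0, 118 and 108 CP10K anteriorly and 10.7, 53.5 and 30.4 CP10K posteriorly (1.61, SE 0.61, unadjusted p = 0.0239, adjusted p = 0.999). With the mouse as a block no gene passed (Apoa4 0.76, adjusted p = 0.587). With that block in cells of at least 5000 UMIs 101 genes passed (53 higher and 48 lower in the anterior samples), none of them a member, and Apoa4 was at 0.82 (adjusted p = 0.0558). The members held 5.02% ± 2.41 (SD, n = 3) of UMIs in anterior and 4.86% ± 2.97 (SD, n = 3) in posterior enterocyte-like cells (two-sided exact permutation test, p = 0.9), and 3 samples against 3 cannot give a p below 0.1.

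The ratio of Apoa4 to Apoa1 within a sample, looked at after these levels were seen, separated the regions in some groups of cells. In enterocyte-like cells it was 0.447, 0.735 and 0.761 in the anterior samples of mice 1, 2 and 3 and 0.305, 0.374 and 0.338 in the posterior samples, with no overlap (two-sided exact permutation test, p = 0.1, the smallest possible for 3 unpaired samples against 3, adjusted p = 0.2 over 12 ratios). The permutation tests did not pair the 2 samples of a mouse. The regions did not overlap in the lower zone (0.415, 0.503 and 0.502 against 0.384, 0.145 and 0.105) or in the middle zone (0.442, 0.757 and 0.516 against 0.26, 0.30 and 0.242), but did in the upper zone (0.461, 0.858 and 1.03 against 0.32, 0.594 and 0.513). In progenitor-like cells the ratio was 0.437, 0.873 and 0.828 anteriorly and 0.245, 0.289 and 0.309 posteriorly, again with no overlap. In goblet-like cells it was 0.427, 0.979 and 0.699 anteriorly against 0.289, 0.548 and 0.309, and the regions overlapped (exact permutation test, p = 0.2, adjusted p = 0.3). Within a mouse the ratio was higher anteriorly in 3 of 3 mice in each of these groups, the upper zone and goblet-like cells included. The same held in 2 of 2 mice in Paneth-like cells, 2 of 2 in enteroendocrine-like cells and 1 of 1 in tuft-like cells. Those are the mice with at least 5 such cells in both regions. The zones are parts of the enterocyte-like cells, so their ratios are not separate from that of the whole class. The 12 tests also held the ratio of Apoc3 to Apoa1. Its regions did not overlap in the lower zone (0.152 to 0.238 against 0.098 to 0.150). Nor did they in the middle zone (0.126 to 0.229 against 0.090 to 0.112). Both had exact permutation p = 0.1 (adjusted p = 0.2), and the other groups overlapped. It was higher anteriorly in 3 of 3 mice in the lower and middle zones, enterocyte-like and goblet-like cells. In progenitor-like cells this held in 2 of 3 mice and in the upper zone in 1 of 3. These results for Apoc3 depended on the averaging. From UMIs summed over cells, the lower zone overlapped (0.1562, 0.2345 and 0.1793 against 0.1954, 0.1029 and 0.0919), with mouse 1 higher posteriorly. From the same sums, all enterocyte-like cells did not overlap (0.1627, 0.2593 and 0.1611 against 0.1342, 0.1305 and 0.1173). Each sample was processed in amplification pools of its own, so that pool and sample cannot be told apart.

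**Figure D4:**
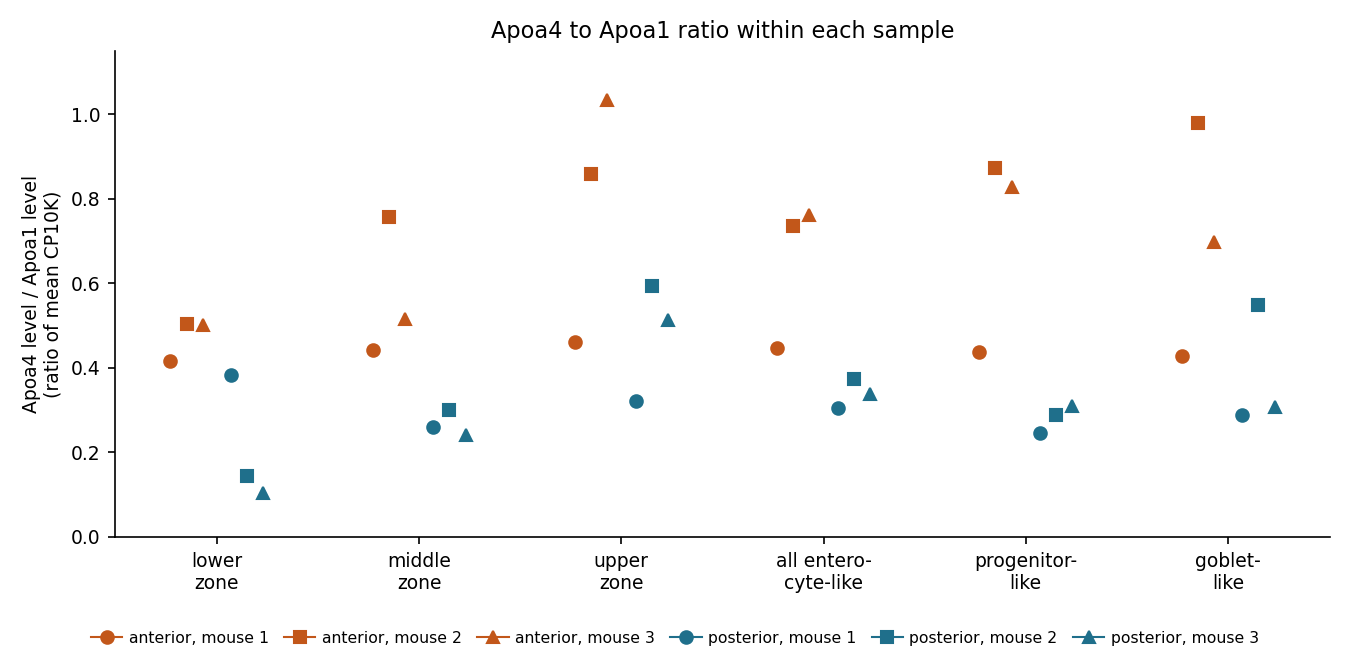
Level of Apoa4 divided by that of Apoa1 (ratio of mean CP10K) within each sample, for the zones of enterocyte-like cells, all enterocyte-like cells, progenitor-like and goblet-like cells; colour gives the region and shape the mouse. In all enterocyte-like cells the anterior samples lie between 0.447 and 0.761 and the posterior samples between 0.305 and 0.374.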

How the data were processed

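Single EpCAM+ cells of 6 samples (3 mice, anterior and posterior jejunum) were profiled by MARS-seq. The submitters' processing notes name bcl2fastq, cutadapt 1.18, UMI-tools 1.0.0, STAR 2.6.1b and R 3.5.1, and the builds GRCm38 and mm10. The deposited values are log2 expression per gene and cell, 1 table per region, which the authors had scaled by a size factor per cell and corrected per gene. Those steps were inverted, and 100.0% of values gave whole UMIs (tolerance 0.01). Both tables were used over the 5674 genes they share, so that levels compared between regions come from tables normalized separately but brought back to UMIs.

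UMIs were expressed per 10000 of the cell (CP10K) and averaged per class and sample, for classes with at least 5 cells. Cells were clustered with scanpy 1.11.5 without 98 lipid genes, and doublets were not removed. limma 3.58.1 (R 4.3.3) was fitted to log2(CP10K + 0.2) over every gene that averaged 0.2 CP10K or more, with the sample as a block for position and class and no block for region, and p-values were adjusted by Benjamini-Hochberg over all genes tested. A fold on this scale understates the change of low genes. For region, p-values measure the spread between samples, 1 per mouse and region. For position and class they measure the spread left within samples after the block, pooled over the zones or classes. There the 2 samples of a mouse count as separate blocks. The fits were tested on simulated data, in which 100 genes were changed by 1 on the log2 scale. Of these, 96.0% were called for position, 62.0% for enterocyte-like against progenitor-like cells and 75.0% for region. The simulated spread was set beforehand, and for region it left out the sample differences that the other simulations had. In the data the SE of the members for region ran from 0.35 (Mogat2) to 0.81 (Apoa4). The 75.0% is therefore not the share of such changes that would be called in these samples.

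The 2 samples of a mouse come from the same animal, and their deviations from the region means correlated at 0.57, 0.13 and 0.38 for mice 1, 2 and 3. Pairs from different mice ran from -0.50 to 0.34, so the highest of them lay above mouse 2. The members were always named. From each other list, up to 4 genes of smallest p past the threshold were named per comparison, or up to 2 where none passed. The members and lists were chosen with earlier results of these data known. Alternatives in pseudocount, filter, scaling, depth, clustering, position score, block and samples were tried.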

Additional observations from a re-analysis of the deposited data

How the results depend on the processing

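All 6 members stayed higher in enterocyte-like cells than in progenitor-like, goblet-like and tuft-like cells under each alternative run, and Mogat2 against enteroendocrine-like cells lost its call at Leiden resolution 1.5 (1.204, adjusted p = 0.163). Without the sample block 2 members passed for position (Apoa4 and Creb3l3) and 110 genes in place of 1021. Apoa1, Apoc3, Apob and Mogat2 then had adjusted p = 0.141, 0.155, 0.059 and 0.134. Mogat2 also lost its position call with summed UMIs (-0.45, adjusted p = 0.099), with 2 zones in place of 3 (-0.57, adjusted p = 0.116) and with tip landmarks alone (-0.24, adjusted p = 0.678). The number of genes called for position was 485 in thinned cells, 555 with 2 zones and 255 with tip landmarks. It was 99 with names set against the mean of other cells or without the mouse 1 cluster. With 1 sample left out it was 679 to 1028 (679 without the anterior sample of mouse 3). The test of the position difference between regions called 1 gene with 2 zones and 1 with common cut points. With a mean of at least 1 CP10K, which leaves fewer genes, 692 genes passed against progenitor-like cells in place of 1463, 703 against goblet-like in place of 1058, 500 against enteroendocrine-like in place of 972 and 634 against tuft-like cells in place of 1278. Thinning gave 925 against progenitor-like cells. Against goblet-like cells median-of-ratios scaling gave 615 (261 higher and 354 lower, in place of 873 and 185), leaving out clusters mostly of 1 mouse 1768 and cells of at least 5000 UMIs 2133. Against enteroendocrine-like cells Leiden resolution 1.5 gave 485 and a minimum of 10 cells 525, and against tuft-like cells leaving out 1 sample gave 773 to 1306 (773 without the posterior sample of mouse 3). The cause of these shifts was not tested.

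For region, the mouse as a replicate block called 0 genes (397 at an unadjusted p under 0.05), 12 without both samples of mouse 1 and 101 in cells of at least 5000 UMIs, none of them a member; the last 2 settings were chosen after seeing the data, as were the deep cells for the other fits and the position fit without the mouse 1 cluster. None of the members passed for region in any alternative, and their signs were not fixed. With 1 sample left out the difference ran from -0.89 to 0.29 for Apoa1, -0.069 to 1.41 for Apoa4, -0.34 to 0.77 for Apoc3, -0.75 to 0.33 for Apob and -0.94 to 0.43 for Creb3l3. It was 0.23 for Apoa1 and 0.15 for Apob in the lower zone, -0.065 for Mogat2 and 0.25 for Creb3l3 in the upper zone, and -0.049 for Apoc3, -0.34 for Mogat2 and 0.39 for Creb3l3 with the other naming or without the mouse 1 cluster.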
